A study of Arabidopsis thaliana with 12 samples.

Results

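*RHD2* (*ROOT HAIR DEFECTIVE 2*, At5g51060, chromosome 5) and *PRP3* (*PROLINE-RICH PROTEIN 3*, At3g62680, chromosome 3) are 2 Arabidopsis genes of root hair growth. They were taken by gene identifier, and each had 1 probe set among the 22746 tested, which gave names to 14580 genes. Neither probe set had a gene in the platform annotation used here. Both were identified through supplementary tables made from these same arrays. One covers all genes but was read here only in part, the genes with the smallest adjusted p for *bri1-5* against Ws-2, and the others hold genes with a p under 0.01. A call of either gene in the comparisons below therefore is not independent of how its probe set was found.

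A root hair is a tubular outgrowth of a single epidermal cell of the root, and it lengthens only at its tip. *RHD2* encodes an NADPH oxidase of the respiratory burst oxidase family, which produces reactive oxygen species at the growing tip, and hairs of *rhd2* mutants stop growing early. *PRP3* encodes a proline-rich structural protein of the cell wall that is made in hair-forming cells of the root epidermis.

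RNA abundance was measured on 12 Affymetrix ATH1 arrays, 3 labelled as biological replicates for each of 4 genotypes. The wild type was accession Ws-2, and all mutants are in this background. *phyB-77*, the allele first isolated as *gul2-1*, carries a premature stop in the gene of the red light photoreceptor phytochrome B, *bri1-5* carries a weak allele of the brassinosteroid (BR) receptor gene *BRI1*, and *phyB-77 bri1-5* carries both. Labels and methods give whole seedlings aged 7 days, from continuous red light, whereas a figure legend for these arrays has 5 days. The study used the 4 genotypes to ask which genes respond to both light and BR signalling. Each mutant genotype rests on 1 allele, and no array of a rescued line was analysed here.

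The values are the deposited log2 signals, whose array medians lay between 5.87 and 5.99. Correlations between arrays were 0.993 to 0.998 for replicates and 0.969 to 0.988 across genotypes. A single limma fit took in all 12 arrays, and a gene is said to be called where its Benjamini-Hochberg adjusted p over all probe sets was under 0.01. Sources do not say whether the replicates were grown separately, so the p-values measure only the spread between these arrays. Whole seedlings contain few root hair cells. In such bulk RNA, fewer or shorter hairs and less RNA per hair cell cannot be told apart.

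Both genes were lower in *phyB-77* and higher in *bri1-5* than in Ws-2. Their means parted in the double mutant, where *RHD2* lay below the wild type and *PRP3* slightly above it. Of these 2 double mutant changes only that of *RHD2* was called, and its call depended on single arrays. *PRP3* also moved much farther than *RHD2* in *phyB-77*. The log2 signal of *RHD2* was 5.64, 5.87 and 5.70 in the 3 Ws-2 arrays and 5.02, 4.95 and 5.03 in *phyB-77*. It was 6.47, 6.49 and 6.73 in *bri1-5* and 5.40, 5.19 and 5.30 in *phyB-77 bri1-5*. No array of one genotype overlapped with any of another. The *RHD2* means therefore ran from *phyB-77* (5.00 ± 0.04, SD, n = 3) through *phyB-77 bri1-5* (5.30 ± 0.10) and Ws-2 (5.74 ± 0.12) to *bri1-5* (6.57 ± 0.15).

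For *PRP3* the log2 signal was 7.63, 7.85 and 7.85 in Ws-2 and 5.69, 5.66 and 5.36 in *phyB-77*. In *bri1-5* it was 8.87, 8.82 and 8.68, and in *phyB-77 bri1-5* 8.07, 8.06 and 8.21. Here too no arrays of different genotypes overlapped, and *phyB-77* stood far below the other 3 genotypes. The order of the *PRP3* means was *phyB-77* (5.57 ± 0.18, SD, n = 3), Ws-2 (7.78 ± 0.13), *phyB-77 bri1-5* (8.12 ± 0.08) and *bri1-5* (8.79 ± 0.10). By their means, the double mutant and Ws-2 thus changed places between the genes, although *PRP3* was not called between these 2 genotypes. Among all probe sets, 36.4% to 43.4% had non-overlapping arrays in a pair of genotypes, so that a lack of overlap is common here.

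**Figure D1:**
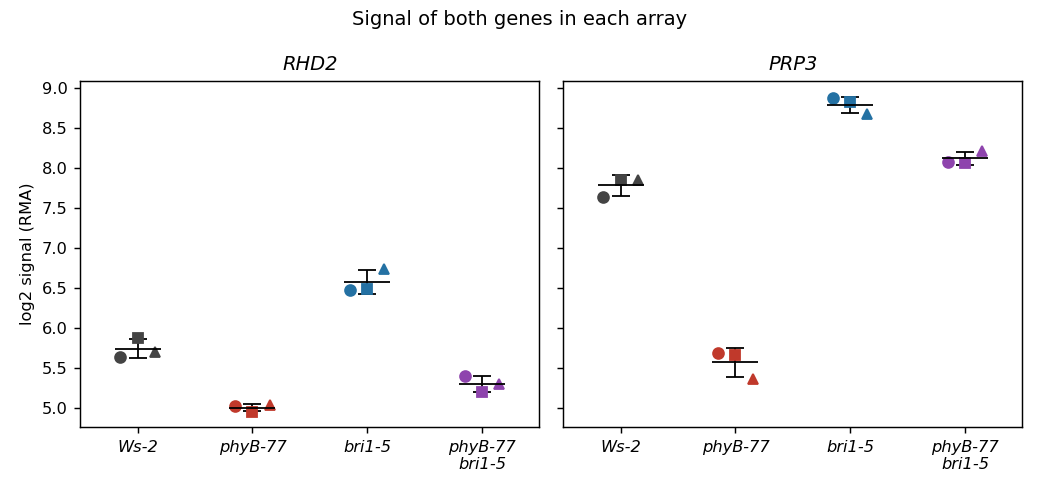
Log2 RMA signal (vertical axis) of *RHD2* (left) and *PRP3* (right) in each of the 12 arrays by genotype; circles, squares and triangles are replicates 1, 2 and 3, and bars are the mean and SD of 3 arrays. Both genes are lowest in *phyB-77* and highest in *bri1-5*, while *phyB-77 bri1-5* lies below Ws-2 for *RHD2* (5.30 against 5.74) and above it for *PRP3* (8.12 against 7.78).

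Probe sets differ in how strongly they bind, so the signal of one gene cannot be read against that of the other as an amount of RNA. Within the arrays of a genotype, the position of each gene among all probe sets gives its place in the range of signals. *RHD2* had 38.9% of probe sets below it in *phyB-77*, 42.9% in the double mutant, 47.9% in Ws-2 and 58.8% in *bri1-5*. *PRP3* had 45.4% below it in *phyB-77*, 76.9% in Ws-2, 81.2% in the double mutant and 88.0% in *bri1-5*. In *phyB-77* both genes thus lay in the lower part of the range, where RMA signals are compressed. *RHD2* lay below the middle of the range in the double mutant and Ws-2 as well. How far this affected the log2 changes and interactions was not tested.

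In *phyB-77* against Ws-2, *PRP3* fell by 2.21 on the log2 scale (SE 0.10, a signal 4.61-fold lower, limma adjusted p = 9.3e-12), which placed it 20th from the lowest of all probe sets. *RHD2* fell by 0.74 (SE 0.10, 1.67-fold lower, adjusted p = 1.4e-05) and was 458th from the lowest. The 95% interval was -2.43 to -1.99 for *PRP3* and -0.95 to -0.54 for *RHD2*. Of all probe sets, 6.77% were called lower in this comparison.

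In *bri1-5* against Ws-2, *PRP3* rose by 1.02 (SE 0.10, 2.02-fold, adjusted p = 7.8e-07) and *RHD2* by 0.83 (SE 0.10, 1.77-fold, adjusted p = 4.2e-06). Their intervals overlapped, with 0.80 to 1.23 for *PRP3* and 0.62 to 1.03 for *RHD2*. They ranked 343rd and 596th from the highest, and 10.5% of all probe sets were called higher. The 3 comparisons with Ws-2 share its arrays.

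In *phyB-77 bri1-5* against Ws-2, *RHD2* fell by 0.44 (SE 0.10, 1.36-fold lower, adjusted p = 0.00261, interval -0.65 to -0.23). This call was lost without Ws-2 replicate 2 (-0.37, adjusted p = 0.0215), without double mutant replicate 2 (-0.39, adjusted p = 0.0218) and without double mutant replicate 3 (-0.44, adjusted p = 0.012). *PRP3* was not called there, at 0.34 (SE 0.10, adjusted p = 0.0248, interval 0.12 to 0.56), although every double mutant array lay above every Ws-2 array. In this comparison 8.01% of all probe sets were called lower and 6.55% higher.

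Adding *bri1-5* to *phyB-77* went with a rise of unequal size. *PRP3* rose by 2.54 in the double mutant against *phyB-77* (SE 0.10, 5.83-fold, adjusted p = 1.1e-11), 12th from the highest of all probe sets, where 6.44% were called higher. *RHD2* was not called, at 0.30 (SE 0.10, adjusted p = 0.0298, interval 0.10 to 0.51), so that these neighbours in its order of levels did not differ at the threshold, despite no overlap of their arrays. Ws-2 and the double mutant are the corresponding neighbours for *PRP3*. All other neighbours in both orders were called different.

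Adding *phyB-77* to *bri1-5* lowered both genes. *RHD2* fell by 1.27 in the double mutant against *bri1-5* (SE 0.10, 2.41-fold lower, adjusted p = 1.5e-08), 96th from the lowest, and *PRP3* by 0.68 (SE 0.10, 1.60-fold lower, adjusted p = 7.2e-05), while 11.6% of all probe sets were called lower. Between the single mutants, *phyB-77* minus *bri1-5* was -3.22 for *PRP3* (9.33-fold lower, adjusted p = 3.0e-14) and -1.57 for *RHD2* (2.97-fold lower, adjusted p = 3.6e-10), where 13.2% of all probe sets were called lower.

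Whether the effect of *phyB-77* depended on the BR receptor allele was tested with the interaction, which takes the *phyB-77* effect seen against *bri1-5* and subtracts the one seen against Ws-2. For *PRP3* the lowering by *phyB-77* was weaker in *bri1-5* (-0.68) than in Ws-2 (-2.21), an interaction of 1.53 (SE 0.15, adjusted p = 9.4e-07, interval 1.22 to 1.84). If the single effects had added on the log2 scale, the double mutant would have had a *PRP3* signal of 6.59, and 8.12 was measured. For *RHD2* the lowering was larger in *bri1-5* (-1.27) than in Ws-2 (-0.74), an interaction of -0.53 (SE 0.14, adjusted p = 0.00975, interval -0.82 to -0.23), with 5.82 for added effects and 5.30 measured. This value lies just inside the threshold, and leaving out 1 array ended the call in 9 of 12 cases, with values between -0.59 and -0.44. It held only without Ws-2 replicate 2 or without *bri1-5* replicate 1 or 2. Of all probe sets, 4.82% were called with an interaction above 0 and 8.93% with one below 0. The median interaction of all probe sets was -0.05.

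The difference between the genes was also taken within each array, *PRP3* minus *RHD2*, so that a shift common to an array cancels. It was 2.04 ± 0.10 (SD, n = 3) for Ws-2, 0.57 ± 0.21 for *phyB-77*, 2.23 ± 0.24 for *bri1-5* and 2.82 ± 0.13 for the double mutant. The size of this difference carries the probe effects, and only its change between genotypes can be read. Over the 4 genotypes it varied more than between replicates (exact two-sided permutation test of the F statistic over 369600 assignments, p = 0.00026, where the smallest possible is 6.5e-05). Against Ws-2, the change of *PRP3* minus that of *RHD2* was -1.46 in *phyB-77* (exact permutation p = 0.1, adjusted over 3 comparisons 0.15), 0.19 in *bri1-5* (exact p = 0.4, adjusted 0.4) and 0.78 in the double mutant (exact p = 0.1, adjusted 0.15). With 3 arrays against 3 the exact test cannot go below 0.1.

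Each gene was next set beside the members of its own family that could be measured. Here and below, a listed gene counts as measured only where a probe set bore its name alone. Other listed genes may be on the array among the 7435 probe sets without a name or the 503 with several genes. The family lists, like those that follow, were written from general knowledge of the genes, but with earlier results of these data known. Of 10 respiratory burst oxidase genes listed, 4 were measured with *RHD2*. At1g19230 rose in *bri1-5* (0.52, adjusted p = 0.000593), whereas neither *phyB-77* (-0.28, adjusted p = 0.0449) nor the double mutant (-0.26, adjusted p = 0.0713) gave a call. At4g25090 was called lower in *phyB-77* (-0.43, adjusted p = 0.00509), a call lost without Ws-2 replicate 1 (-0.45) or 2 (-0.38) and without *phyB-77* replicate 1 (-0.40) or 3 (-0.42). Its values were 0.35 in *bri1-5* and -0.26 in the double mutant, neither of them called. At4g11230 was called in none of these comparisons, with 0.19, 0.22 and 0.08. *RHD2* had the largest log2 fold change of the 4 in each of the 3 comparisons with Ws-2. It was named only through the study's tables, as read here mostly genes that changed, and the others by the platform annotation. This order is therefore not independent of how *RHD2* was found. The genotype means of At4g11230 (3.18 to 3.39) and At1g19230 (3.52 to 4.32) also lay far below the median of all probe sets (5.91). Signals are compressed there, and how far this limited their changes was not tested.

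Of 4 proline-rich protein genes listed, 3 were measured with *PRP3*. All 3, *PRP3* included, were named only through the study's tables, so their calls are not independent of how they were found. *PRP1*, which like *PRP3* is known for expression in roots, fell by 1.84 in *phyB-77* (SE 0.10) and rose by 0.88 when *BRI1* was mutated, both called, but gave no call in the double mutant (-0.10, adjusted p = 0.566). Its interaction was 0.86 (adjusted p = 0.000284), of the same sign as that of *PRP3*. *PRP2*, known for expression in the shoot, ran the other way, with called changes of 0.67 in *phyB-77*, -2.46 in *bri1-5* and -0.83 in the double mutant.

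Genes with a signal most like that of each member were sought among 1512 genes whose genotype means spanned at least 1 log2 unit, by Pearson's r over the 12 arrays. The 4 genotypes account for most of the variation, so that r mainly compares 4 levels, and it is given as a description. For *PRP3* the leading genes were *ADF11* (r = 0.995), an actin depolymerizing factor, *RHS13* (0.993), named as root hair specific, At1g30870 (0.988), the peroxidase gene At1g05250 (0.988) and the extensin gene *EXT13* (0.986). All 5 were called lower in *phyB-77*, from -2.73 (*RHS13*) to -1.96 (At1g30870). Each was also called higher in *bri1-5*, by 0.69 to 1.40. These 5 were picked for likeness to *PRP3* over the same arrays, so the directions of their changes follow from the selection. Their calls are therefore given as a description only. In the double mutant only *ADF11* was called of these 5 (0.50, adjusted p = 0.00133), a call lost without double mutant replicate 2 (0.42).

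For *RHD2* the leading genes were *ORG1* (r = 0.983), At1g47400 (0.981), *G6PD1* (0.979), a glucose-6-phosphate dehydrogenase gene, At1g69420 (0.978) and the protein kinase gene *CIPK20* (0.977). None of these 5 is on the root hair lists, whereas *RHS13* and At1g30870 of the 5 for *PRP3* are. In *phyB-77* they ranged from -1.44 (*CIPK20*) to -0.54 (*G6PD1*) and in *bri1-5* from 0.59 (*G6PD1*) to 1.88 (At1g47400), all called. In the double mutant all 5 lay below Ws-2, with *ORG1* (-0.55), At1g47400 (-0.64) and *CIPK20* (-1.06) called, and *G6PD1* (-0.34, adjusted p = 0.0116) and At1g69420 (-0.30, adjusted p = 0.0198) not. The directions of change of these 5 likewise follow from their selection for likeness to *RHD2*, and their calls too are only a description. *PRP3* ranked 251st in likeness to *RHD2* and *RHD2* 207th in likeness to *PRP3*, with r = 0.776 for the pair. The members thus resembled other genes more than each other.

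The other genes of root hair formation were counted from 4 lists of fate and patterning, growth machinery, cell wall, and further root-hair-specific genes. Apart from *RHD2* and *PRP3*, 28 of these genes were measured, 13 with a name from the platform annotation and 15 with a name only from the study's tables, as read here mostly genes that changed. Counts over the latter are therefore not independent of the calls, and counts over the 13 stand beside them. The lists themselves were chosen with earlier results of these data known, which limits the counts over the 13 too. In *phyB-77*, 20 of the 28 were called lower, against 6.77% of all probe sets, and the median change was -1.23 against 0.01 over all probe sets. Called higher by limma there were 0, and 0 also at an unadjusted p under 0.05, against 8.56% of all probe sets. In *bri1-5*, 22 were called higher and 1 lower, against 10.5% and 8.61% of all probe sets, with a median of 0.69 against 0.01. In the double mutant, 3 were called higher, 1 lower and 24 not, against 6.55% called higher and 8.01% lower over all probe sets. The median there was 0.06 against -0.02, and 5 were called higher without *bri1-5* replicate 3. Of the 13 genes named by the annotation, 7 fell in *phyB-77*, 8 rose in *bri1-5* and 1 rose in the double mutant, with medians of -0.72, 0.52 and 0.04.

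**Figure D2:**
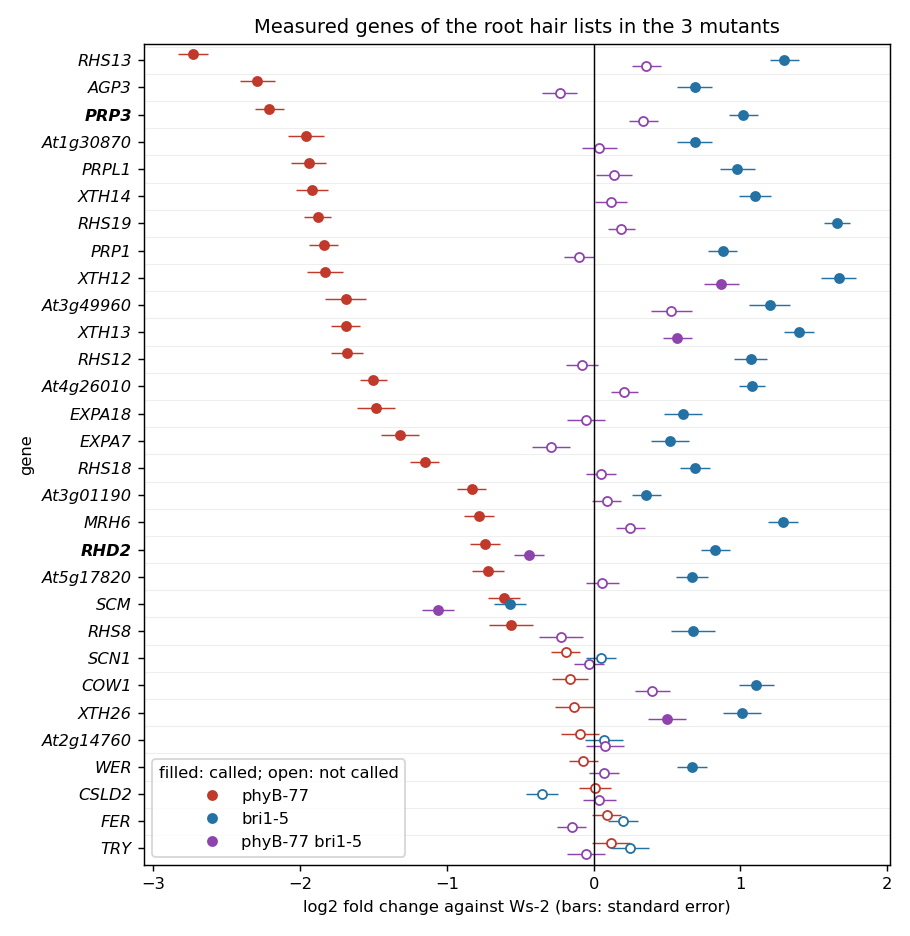
Log2 fold change against Ws-2 (horizontal axis) of the 30 measured genes of the root hair lists, *RHD2* and *PRP3* in bold, for *phyB-77* (red), *bri1-5* (blue) and *phyB-77 bri1-5* (purple); bars are the standard error and filled points are called. Most genes of the cell wall list lie left of 0 in *phyB-77* and right of 0 in *bri1-5*, with double mutant points close to 0, whereas *RHD2* is called lower in the double mutant (-0.44).

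Cell wall genes of root hairs, the list of *PRP3*, made up most of these changes. Without *PRP3*, 19 were measured of 24 others listed. In *phyB-77*, 18 of the 19 were called lower (median -1.69), and in *bri1-5* all 19 were called higher (median 0.98). Of all probe sets, 6.77% and 10.5% were called so. In the double mutant 16 were not called and 3 were higher (median 0.09), and against *phyB-77* 18 were higher there (median 1.74). Of all probe sets, 6.55% and 6.44% were called higher in these 2 comparisons. Most of the 19 were named only through the study's tables, so these counts are not independent of the calls. *PRP3* (-2.21, 1.02 and 0.34) lay within the range of this list in each comparison with Ws-2. *RHS13* fell by 2.73 in *phyB-77*, the lowest of the 19, and was called higher in *bri1-5*. In the double mutant it was at 0.36 (adjusted p = 0.0118). *AGP3*, an arabinogalactan protein gene, had changes of -2.29, 0.69 and -0.23 in *phyB-77*, in *bri1-5* and in the double mutant, of which only the last was not called. At1g30870 (-1.96, 0.69 and 0.04) and the proline-rich protein-like gene *PRPL1* (-1.94, 0.98 and 0.14) had the order of genotypes of *PRP3* and were not called in the double mutant.

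The 3 wall genes called higher in the double mutant encode xyloglucan endotransglucosylase/hydrolases, which cut and rejoin wall polysaccharides. They were *XTH12* (0.87), *XTH13* (0.57) and *XTH26* (0.50), chosen after their values were seen. The fourth such gene measured, *XTH14*, was not called there (0.12, adjusted p = 0.501). The call of *XTH26* was lost without any 1 of the 3 Ws-2 arrays (0.45 to 0.54) and without double mutant replicate 1 (0.48) or 2 (0.45). *XTH26* was also the 1 wall gene not called lower in *phyB-77* (-0.13, adjusted p = 0.555). Its mean in Ws-2 (3.67, against 3.54 in *phyB-77*) was the lowest of the wall list, where signals are compressed. How far this limited its fall was not tested. The expansin genes *EXPA7* (-1.32, 0.52 and -0.29) and *EXPA18* (-1.48, 0.61 and -0.05), whose proteins loosen the walls of growing hairs, were called in *phyB-77* and *bri1-5* and not in the double mutant. For *EXPA7* the call in *bri1-5* was lost without Ws-2 replicate 1 (0.43) or 2 (0.53) and without any 1 of the *bri1-5* replicates (0.49 to 0.54).

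In the list of growth machinery, to which *RHD2* belongs, 5 other genes were measured. In *phyB-77*, 1 of the 5 was called lower (median -0.16), against 6.77% of all probe sets, and in *bri1-5* 2 were called higher (median 0.20), against 10.5%. Of the 5, 0 were called by limma in the double mutant (median 0.04, with 2 higher and 0 lower at an unadjusted p under 0.05), against 6.55% called higher and 8.01% lower over all probe sets. *MRH6* (*MORPHOGENESIS OF ROOT HAIR 6*) was called lower in *phyB-77* (-0.78) and higher in *bri1-5* (1.29), and was not called in the double mutant (0.25, adjusted p = 0.0931). *COW1*, which encodes a phosphatidylinositol transfer protein needed for hair tip growth, was called in *bri1-5* only (1.11), with -0.16 in *phyB-77* and 0.40 in the double mutant (adjusted p = 0.0193). The cellulose synthase-like gene *CSLD2* and the receptor kinase gene *FER* were called in none of the 3 comparisons. *RHD2* was the 1 gene of the growth list called lower in the double mutant. *RHD2*, *MRH6* and *COW1* were named only through the study's tables, as read here mostly genes that changed. The other measured genes of this list were named by the platform annotation, and none of them was called against Ws-2. The calls in this list are therefore not independent of the naming.

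Genes of hair cell fate were measured for 4 of 19 listed. *SCM*, which encodes a receptor-like kinase that reads cell position, fell in all 3 mutants, with -0.61 for *phyB-77*, -0.57 for *bri1-5* and -1.06 for the double mutant. *WER*, a MYB gene of the non-hair fate, rose in *bri1-5* (0.67), while *phyB-77* (-0.07) and the double mutant (0.07) gave no call. *TRY*, a MYB repressor gene, and At2g14760 were called in no comparison with Ws-2. *SCM* and *WER* were named only through the study's tables, and *TRY* and At2g14760 by the platform annotation. The calls of *SCM* and *WER* are therefore not independent of their naming. Of the 7 further root-hair-specific genes listed, 0 had a probe set that could be named here.

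The interaction was counted over the same genes. Of the 28, 12 were called with an interaction above 0 and 0 below 0 by limma (17 and 4 at an unadjusted p under 0.05), against 4.82% and 8.93% of all probe sets. Their median was 0.51 against -0.05 over all probe sets. Among the 13 named by the annotation, 5 were called above 0. All 12 were among the 19 cell wall genes, whose median interaction was 0.82, and *PRP3* lay within their range of -0.38 to 1.80. *RHD2* (-0.53) was called below 0, but *COW1* (-0.55, adjusted p = 0.0243) and *WER* (-0.54, adjusted p = 0.0112) had like values that missed the threshold. Without *bri1-5* replicate 3, *WER* was called (-0.58, adjusted p = 0.00946) and *RHD2* was not (-0.44, adjusted p = 0.0209), and *WER* was also called without *phyB-77* replicate 2 (-0.61, adjusted p = 0.00814). For the 5 other growth machinery genes, 0 were called either way by limma (1 above and 2 below 0 at an unadjusted p under 0.05), and the median was -0.25. Beside *COW1*, *FER* had -0.43 (adjusted p = 0.0334) and *MRH6* -0.25 (adjusted p = 0.244).

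**Figure D3:**
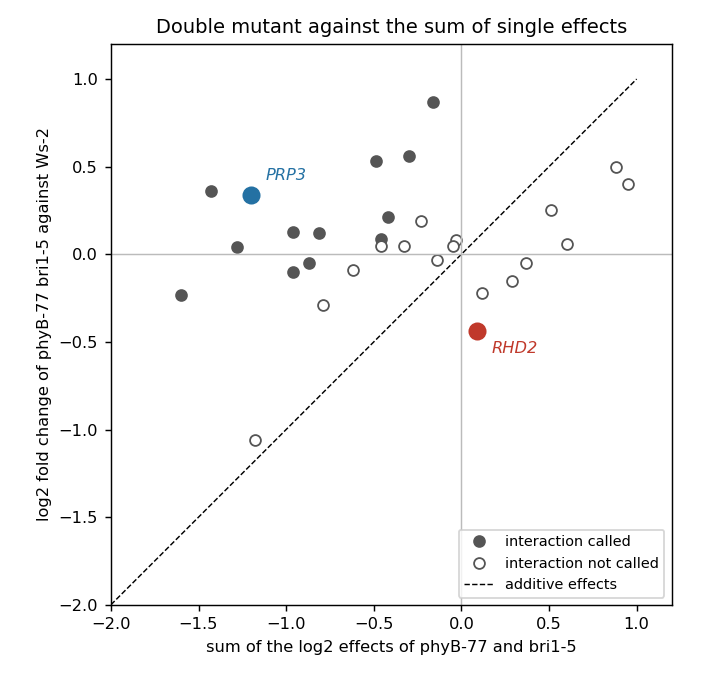
Log2 fold change of *phyB-77 bri1-5* against Ws-2 (vertical axis) plotted against the sum of the log2 effects of *phyB-77* and *bri1-5* (horizontal axis) for the 30 measured root hair genes; filled points have a called interaction and the dashed line marks added effects. *PRP3* lies above the line (interaction 1.53) with 12 cell wall genes, and *RHD2* below it (-0.53).

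Markers of other tissues changed too, and their part in the changes of *RHD2* and *PRP3* was not tested. Of 22 genes listed for other root tissues, 9 were measured. Of these, 5 were called lower in *phyB-77*, 6 in *bri1-5* and 6 in the double mutant, against 6.77%, 8.61% and 8.01% of all probe sets. Only *bri1-5* had 1 called higher. *IRT1*, *CASP1* to *CASP5* and *ESB1* were named only through the study's tables, so these counts are not independent of the calls. The others of the 9 were named by the platform annotation. Their changes were 0.05 and -0.53 in *bri1-5* and -0.08 and 0.21 in the double mutant, none of them called. In *phyB-77* they were 0.06 and -0.67, of which only the latter was called. The log2 of the summed signal of the 9 ranged from 13.48 to 13.61 for the wild type, 13.38 to 13.62 for *phyB-77*, 13.36 to 13.41 for *bri1-5* and 13.28 to 13.39 in the double mutant. These ranges span much less than the summed signal of the 19 hair wall genes, which was 11.77 to 11.80 for the wild type, 10.32 to 10.55 for *phyB-77*, 12.70 to 12.78 for *bri1-5* and 11.91 to 11.96 in the double mutant. The 9 include strongly expressed genes that weigh on the sum. Most of the sum is *PYK10* (log2 signal 12.98 in Ws-2), which was called in none of the 3 comparisons with Ws-2. The narrow ranges therefore mainly reflect *PYK10*.

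*CASP1* to *CASP5* and *ESB1*, genes of the endodermal Casparian strip, did not follow *RHD2* and *PRP3* in *bri1-5*. All 6 were called lower there, against 8.61% of all probe sets, with a median of -0.91, while *RHD2* and *PRP3* rose. The 6 were named only through the study's tables, as read here mostly genes that changed, so these calls are not independent of their naming. Their summed log2 signal was 11.88 to 11.89 for the wild type, 11.45 to 11.57 for *phyB-77*, 10.76 to 11.03 for *bri1-5* and 11.28 to 11.33 in the double mutant. *CASP5* was at -0.70, -1.66 and -0.89 in the single mutants *phyB-77* and *bri1-5* and the double mutant, all called. *CASP2* was at -0.49, -1.05 and -0.51, where the calls in *phyB-77* (-0.52 to -0.46) and in the double mutant (-0.55 to -0.49) were each lost without any 1 array of the 2 genotypes compared, and that in *phyB-77* also without any 1 double mutant array.

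*IRT1*, the iron transporter gene of the root epidermis, was the 1 gene of the 9 called higher in *bri1-5* (0.96), and was chosen after its values were seen. It fell by 0.82 in *phyB-77* and by 1.00 in the double mutant, both called. Like *RHD2* it was thus highest in *bri1-5* and below the wild type in both genotypes with *phyB-77*. Among markers of green shoot tissue, 2 of 10 were measured, *RCA* and *CA1*. Both were called lower in *phyB-77* (-0.48 and -0.51), against 6.77% of all probe sets. Neither gave a call for *bri1-5* (0.14 and 0.07) or for the double mutant (-0.07 and 0.12). *CA1* was named only through the study's tables and *RCA* by the platform annotation, so the call of *CA1* is not independent of its naming. The summed log2 signal of the 2 was 14.43 to 14.54 for the wild type, 13.91 to 14.07 for *phyB-77*, 14.54 to 14.63 for *bri1-5* and 14.46 to 14.50 in the double mutant.

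**Figure D4:**
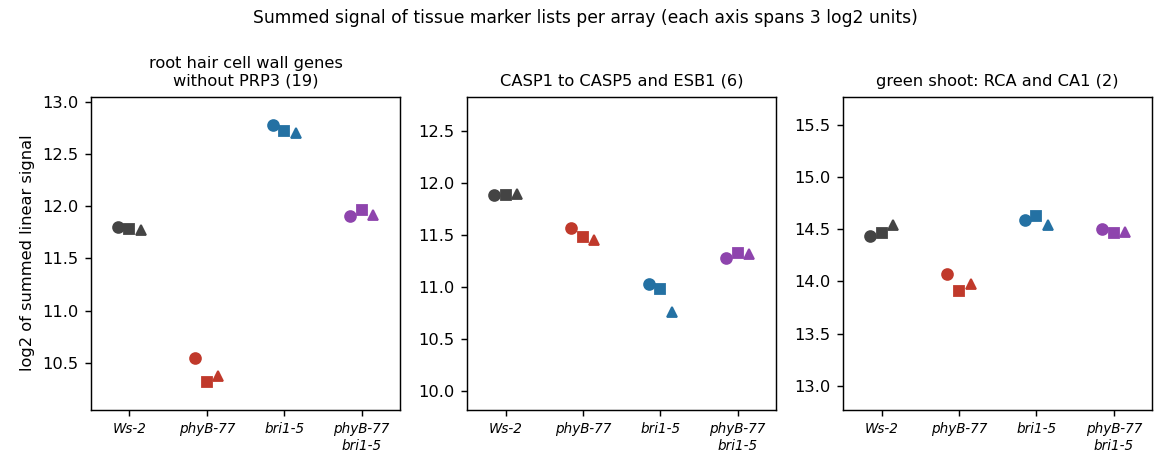
Log2 of the summed linear signal per array (vertical axis, each panel spanning 3 log2 units) by genotype for 19 root hair cell wall genes without *PRP3*, for *CASP1* to *CASP5* and *ESB1*, and for *RCA* and *CA1*; circles, squares and triangles are replicates 1, 2 and 3. The hair wall genes are lowest in *phyB-77* (10.32 to 10.55) and highest in *bri1-5* (12.70 to 12.78), whereas the Casparian strip genes are lowest in *bri1-5* (10.76 to 11.03).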

How the data were processed

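Deposited values are the authors' log2 signals per probe set, made with RMA (robust multi-array averaging), which corrects background, equalizes the array distributions and summarizes probes. The RMA software and genome build are not given in the sources used here. No further normalization was applied. Of 22810 probe sets, 64 controls were left out. The platform annotation named a single gene for 13513 probe sets, the study's shortened supplementary tables named 1295 more, and 7435 had no name. Symbols came from RefSeq (TAIR10.1). The authors' fold changes and p-values were not used.

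All 12 arrays were fitted with limma 3.58.1 (R 4.3.3), with 1 coefficient per genotype, no other term and no fold criterion. Residual degrees of freedom were 8, with 9.85 from the prior, and the number of arrays limits the precision. Both the fit and the permutation test were tested on simulated data. Genes and lists were chosen with earlier results of these data known. Named genes are *RHD2* and *PRP3*, all measured family members, the 4 genes of each root hair list and 2 of each marker list with the largest change in any comparison with Ws-2, and the 5 genes most like each member. All others were chosen with their values in view. Where several probe sets name a gene, the brightest was used. Alternatives were median centring, quantile normalization, the 40% dimmest probe sets left out, a fit with variance trend and robust prior, weighted arrays, a replicate block, fits of only the 6 arrays compared, an adjusted p under 0.05, an added fold of 1.5, and each array left out. Python 3.11.15, pandas 2.3.3 and matplotlib 3.10.9 made tables and figures.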

Additional observations from a re-analysis of the deposited data

Results flagged for a closer look

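The effect of *phyB-77* differed between the *bri1-5* and Ws-2 backgrounds, by limma's interaction test, for 22 of the genes named. Of all probe sets, 4.82% were called with an interaction above 0 and 8.93% with one below 0. Genes were named mostly for large changes or for likeness to a member, so the count of 22 is not independent of the calls. The check for single outlying values used here needs at least 4 arrays a group and was not made.

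For *PRP3* the interaction was 1.53, since *phyB-77* had an effect of -2.21 in Ws-2 and of -0.68 in *bri1-5*. *RHD2* had -0.53, with effects of -0.74 in Ws-2 and -1.27 in *bri1-5*, and this value depends on single arrays.

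Among root hair cell wall genes the interaction was 1.80 for *RHS13*, 1.37 for *AGP3*, 1.31 for At1g30870, 1.10 for *PRPL1*, 1.03 for *XTH12*, 0.86 for *XTH13*, 0.93 for *XTH14*, 0.82 for *EXPA18* and 0.86 for *PRP1*. In each of these the effect of *phyB-77* was below 0 in both backgrounds and smaller in *bri1-5*, for example -2.73 and -0.94 for *RHS13*.

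The genes most like *PRP3* had 1.62 (*ADF11*), 1.14 (At1g05250) and 1.71 (*EXT13*), and those most like *RHD2* had -1.05 (*ORG1*), -1.18 (At1g47400) and -0.92 (*CIPK20*). These genes were selected for their likeness to a member, which fixes the sign.

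*PRP2* had an interaction of 0.97, with effects of 0.67 in Ws-2 and 1.64 in *bri1-5*. For *CASP5* (1.48) and *CASP2* (1.03) the effect of *phyB-77* was below 0 in Ws-2 (-0.70 and -0.49) and above 0 in *bri1-5* (0.77 and 0.54). *CA1* had 0.56, a call lost without Ws-2 replicate 1 or 3, *bri1-5* replicate 3, *phyB-77* replicate 2 or 3, or any 1 of the double mutant replicates (0.49 to 0.59). *IRT1* had -1.14, with effects of -0.82 and -1.96.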

How the results depend on the processing

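The calls of *RHD2* and *PRP3* in each single mutant, between the single mutants and in the double mutant against *bri1-5* held under every alternative run, as did those of *PRP3* in the double mutant against *phyB-77* and in the interaction. The interaction of *RHD2* was not called with median centring (-0.42), quantile normalization (-0.43), variance trend and robust estimation (-0.53), array weights (-0.48), the replicate block (-0.53) or a fold above 1.5 (-0.53), and ranged from -0.59 to -0.44 without single arrays. *RHD2* in the double mutant against Ws-2 failed a fold above 1.5 (-0.44) and ranged from -0.49 to -0.37 without single arrays. Against *phyB-77* it was called with median centring (0.37) and at 0.05 (0.30). *PRP3* in the double mutant against Ws-2 was called with array weights (0.32), with only the 6 arrays compared (0.34) and at 0.05 (0.34).

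Of the 28 other root hair genes, those called higher in the double mutant numbered 5 with median centring, trend and robust estimation or only 6 arrays, 6 with array weights or at 0.05, 1 with a fold above 1.5, and 2 to 5 without single arrays, against 3. The 1 called lower became 0 without the dimmest probe sets. An interaction below 0 was called for 1 with array weights, 3 at 0.05 and 0 to 1 without single arrays, against 0. Oxidase genes called numbered 1 with a fold above 1.5 (against 2) and 1 to 2 without single arrays in *phyB-77*, 1 without the dimmest or with that fold (against 2) and 2 to 3 in *bri1-5*, and 0 with that fold (against 1) and 0 to 1 in the double mutant.

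In the double mutant, *RHS13* (0.36), At1g05250 (0.48 to 0.50), *G6PD1* (-0.34) and At1g69420 (-0.30) passed the threshold under several alternatives each. Only values that were not called changed sign: *CSLD2* in *phyB-77* (-0.05 with median centring, -0.03 with quantile normalization, -0.07 to 0.09 without single arrays) and in the double mutant (-0.01 to 0.10), At2g14760 in *bri1-5* (-0.02 with array weights, -0.04 to 0.22), *phyB-77* (-0.21 to 0.01), the double mutant (-0.01 to 0.18) and the interaction (-0.05 to 0.22), *TRY* in *phyB-77* (-0.04 to 0.24) and the double mutant (-0.09 to 0.01), *WER* in *phyB-77* (-0.15 to 0.00) and *EXPA18* in the double mutant (-0.12 to 0.03). Arrays with the same replicate number did not deviate together (r = -0.195 to 0.076), so the numbers were not taken as pairs. Where not stated otherwise the cause was not tested.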
